A study of Mus musculus with 5 samples.

Results

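The genes examined here were the chemokine ligands Ccl3, Ccl4, Ccl6, Ccl9 and Cxcl2 and the chemokine receptors Cxcr2, Cxcr4, Ccr1, Ccr2 and Cx3cr1. The 10 genes were chosen by name as chemokine genes of myeloid cells, and all 10 were found among the 52550 genes of the count table. Transcripts were counted by 3′ RNA sequencing (Quant-seq), which reads the end of each polyadenylated transcript, in KL cells, the Lin-cKit+Sca1- fraction of bone marrow that holds committed myeloid progenitors. There were 3 BcorΔE9-10 libraries (genotype scl-Cre-ERT +; Bcorfl/y) and 2 BcorWT libraries (scl-Cre-ERT +; Bcorwt/y), so mice of both groups carried the Cre transgene. All mice received 1 mg of tamoxifen on each of 5 days at an age of 3 to 6 months, and cells were taken 20 weeks later. The Cre was driven from a stem cell element of the Scl (Tal1) gene, so exons 9 and 10 of Bcor were removed in stem cells, and KL cells inherited the change. Per the methods of the study all mice used for sequencing were male, and the deleted allele still gives a truncated protein at a low level, so the model is a truncation and not an absence of Bcor.

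Chemokines are small secreted proteins that direct the movement of blood cells, and the CC and CXC families are named from the spacing of their conserved cysteines. They bind receptors that signal through inhibitory G proteins to phosphoinositide 3-kinase and Rac, and receptor kinases and beta-arrestins then switch the receptors off. In bone marrow Cxcr4 holds progenitors and neutrophils close to stroma that makes Cxcl12, Cxcr2 favours release of neutrophils, and Ccr2 is needed for monocytes to leave. Ccl3, Ccl6 and Ccl9 are ligands of Ccr1, and Cxcl2 is a ligand of Cxcr2.

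The libraries held between 5998924 and 8303999 counts. Bcor was read 196, 168 and 185 times in BcorΔE9-10 and 83 and 109 times in BcorWT, but reads at the transcript end do not cover the deleted exons and so do not check the labels. The primary granule genes Mpo, Elane, Prtn3 and Ctsg of early granulocyte progenitors were read in all libraries, Mpo with 26303 to 46819 counts, and Ly6a, which encodes Sca1, had 3 to 8 counts. Transcripts of maturing neutrophils were also abundant, S100a8 with at least 461181 counts in each library. Kit itself was higher in BcorΔE9-10, by 1.43 on the log2 scale (limma adjusted p = 9.82e-05, SE 0.173).

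None of the 10 genes passed the threshold, a limma p-value under 0.05 after Benjamini-Hochberg adjustment over the 11766 genes tested, where 10.1% of all tested genes did. All 10 passed the filter on low counts. Ccl3, Ccl4, Cxcl2 and Ccr1 had positive fold changes and the other 6 genes had negative ones, and the median log2 fold change was -0.23, against 0.0043 over all tested genes. Unadjusted limma p-values under 0.05 were found for 3 of the 10 genes (Ccr2, Ccl9 and Ccl3), and for 25.3% of all tested genes. The quasi-likelihood test of edgeR and DESeq2 also called 0 of the 10, with 4 and 3 genes at an unadjusted p under 0.05. Of all 11766 tested genes these tools called 1319 and 1280, with 3023 and 2583 at an unadjusted p under 0.05. The groups did not overlap for 1 gene, Ccr2, while 42.8% of all tested genes had no overlap. In sorted cells, fewer cells of a type and less RNA per cell cannot be told apart.

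**Figure D1:**
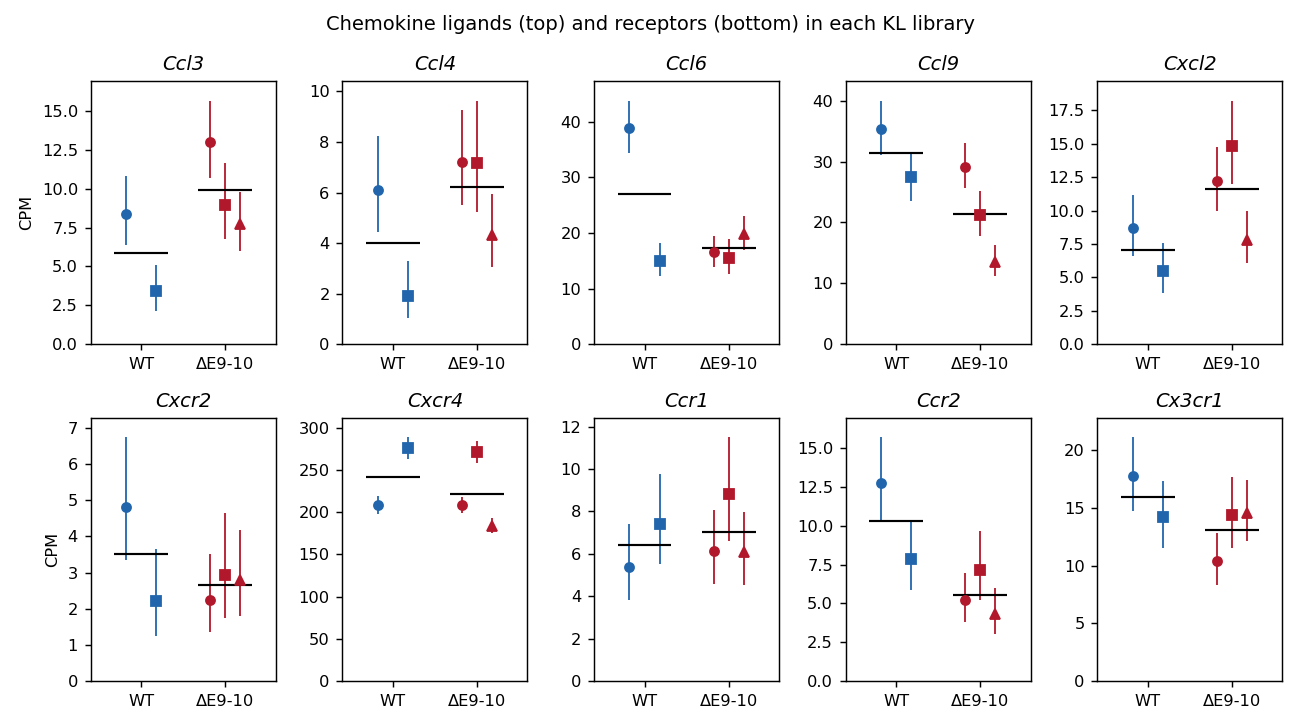
Level of each gene in counts per 1000000 (CPM, vertical axis, from 0) in the 2 BcorWT (blue) and 3 BcorΔE9-10 (red) libraries, with ligands above and receptors below; circles, squares and triangles are replicates 1, 2 and 3, vertical bars are exact 95% Poisson intervals that cover counting error alone, and black lines are group means. The groups overlap in 9 of the 10 panels, and for Ccl3, Ccl4 and Ccl6 the BcorWT libraries lie far apart.

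Ccl3 and Ccl4 (also known as MIP-1alpha and MIP-1beta) are inflammatory CC chemokines that attract monocytes and lymphocytes. Ccl3 (mm10, chromosome 11, 83647844 to 83649355, minus strand) stood at 13.001, 8.97 and 7.71 CPM in the BcorΔE9-10 libraries and at 8.38 and 3.41 CPM in the BcorWT libraries. CPM here are counts per 1000000 of the library total after TMM scaling, a factor that offsets differences in composition. All BcorΔE9-10 libraries were above BcorWT replicate 2, but replicate 1 of BcorWT lay among them. The means were 9.90 ± 2.76 CPM (SD, n = 3) and 5.89 ± 3.51 CPM (SD, n = 2), a 1.79-fold difference whose 95% interval ran from 1.02 to 3.12 before adjustment (log2 fold change 0.84, SE 0.380, limma adjusted p = 0.179). It was 0.21 without BcorWT replicate 2 (limma adjusted p = 0.765) and 1.49 without BcorWT replicate 1 (limma adjusted p = 0.122). Ccl4 (chromosome 11, 83662584 to 83664683, plus strand) stood at 7.21, 7.18 and 4.32 CPM in BcorΔE9-10 and at 6.11 and 1.93 CPM in BcorWT, with 13 counts behind the lowest value. The order of the libraries was close to that of Ccl3, and the log2 fold change was 0.76 (SE 0.463, limma adjusted p = 0.321), or -0.033 without BcorWT replicate 2 and 1.59 without BcorWT replicate 1.

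Cxcl2 (MIP-2) is a neutrophil attractant that myeloid cells induce rapidly on activation. Its gene (chromosome 5, 90903871 to 90905938, plus strand) was read at 12.2, 14.8 and 7.83 CPM in the BcorΔE9-10 libraries and at 8.66 and 5.48 CPM in the BcorWT libraries. BcorΔE9-10 replicate 3 fell between the BcorWT libraries, so the groups overlapped. The means of 11.6 ± 3.54 CPM (SD, n = 3) and 7.07 ± 2.25 CPM (SD, n = 2) gave a 1.57-fold difference with an interval from 0.967 to 2.56 (log2 fold change 0.66, SE 0.332, limma adjusted p = 0.232). On the log2 scale it was 0.34 without BcorWT replicate 2 (limma adjusted p = 0.624) and 0.99 without BcorWT replicate 1 (limma adjusted p = 0.244).

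The transcript ends of Ccl3, Ccl4 and Cxcl2 share a feature that was not used to choose the genes, and its relation to the fold changes, none of which passed the threshold, was not tested. The word TATTTAT, a core of the AU-rich elements that Zfp36 family proteins bind to speed mRNA decay, occurred in the last 300 bases of the transcripts of these 3 genes and of none of the other 7. Of all tested genes with an annotated end of that length, 8.40% held it. Because Quant-seq reads this stretch, 30 bases around each word are shown from the 3′ untranslated region of the longest coding transcript in the GENCODE M21 annotation, with the pentamer ATTTA, which the longer word contains, in capitals:
Ccl3: atttgtgactATTTAttctgaaagacttca
Ccl4: tatttctattATTTAtgttttagttatagg
Cxcl2: aagtggacacATTTATTTAttcatgtattt
The end of Ccl3 held 5 copies of ATTTA and those of Ccl4, Cxcl2 and Ccl6 held 2 each, and 38.7% of all ends held at least 1. A match is a description of the sequence and does not show that a protein bound it.

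Ccl6 and Ccl9 are related CC chemokines of rodents that myeloid cells express without stimulation. Ccl6 (chromosome 11, 83587882 to 83593087, minus strand) stood at 16.5, 15.5 and 19.9 CPM in the BcorΔE9-10 libraries, and at 38.9 and 14.97 CPM in the BcorWT libraries. The BcorΔE9-10 libraries were close together and just above BcorWT replicate 2, whereas BcorWT replicate 1 was far higher than all other libraries. The log2 fold change was -0.49 (SE 0.295, limma adjusted p = 0.322), and it was -1.16 without BcorWT replicate 2 (limma adjusted p = 0.00125) and 0.21 without BcorWT replicate 1 (limma adjusted p = 0.730). Its direction thus rests on which BcorWT library is used. In these fits the lone BcorWT library was assumed to vary like the others.

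Ccl9 (chromosome 11, 83572919 to 83578636, minus strand) stood at 29.2, 21.2 and 13.6 CPM in BcorΔE9-10 and at 35.4 and 27.4 CPM in BcorWT. Only BcorΔE9-10 replicate 1 reached the range of the BcorWT libraries. The means were 21.3 ± 7.82 CPM (SD, n = 3) and 31.4 ± 5.62 CPM (SD, n = 2), a ratio of 0.649 with an interval from 0.452 to 0.934 before adjustment (log2 fold change -0.62, SE 0.248, limma adjusted p = 0.125). Without BcorΔE9-10 replicate 1 it passed the threshold, at -0.91 on the log2 scale (limma adjusted p = 0.0251), whereas it was at -0.31 without BcorΔE9-10 replicate 3 (limma adjusted p = 0.446) and at -0.44 without BcorWT replicate 1 (limma adjusted p = 0.459).

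The 4 CC ligand genes lie together within 91.8 kb, in the order Ccl9, Ccl6, Ccl3 and Ccl4, with Ccl3 and Ccl4 on opposite strands and 13.2 kb apart. The ratio of Ccl3 to Ccl4 counts stayed between 1.25 and 1.80 in the 5 libraries. As a share, Ccl3 made up from 55.6% (95% Wilson interval 45.7 to 65.0) to 64.3% (56.9 to 71.1) of the counts of the pair, and these intervals, which cover counting error only, overlapped. Ccl6 and Ccl9, 9.25 kb apart and on the same strand, had count ratios from 0.546 to 1.47. Ccl6 made up 36.2%, 42.2% and 59.4% of the counts of that pair in BcorΔE9-10 and 52.4% and 35.3% in BcorWT, and the interval of the highest share (53.7 to 65.0) lay above that of the lowest, which ended at 41.0%. The pairs were not tested against each other, and Ccl3 and Ccl4 had fewer counts and so wider intervals.

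**Figure D2:**
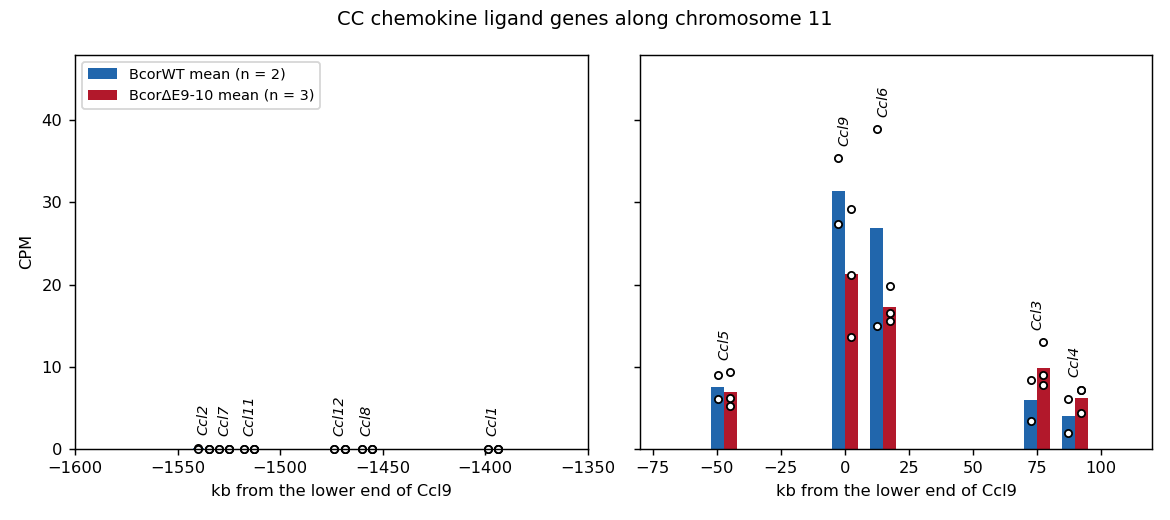
CC ligand genes of chromosome 11 by distance in kb from the lower end of Ccl9 (horizontal axis), with bars for the group mean CPM of BcorWT (blue, n = 2) and BcorΔE9-10 (red, n = 3) and open circles for single libraries; CPM count transcript ends and are not divided by length. The genes from Ccl5 to Ccl4 have reads in all libraries, and the block from Ccl2 to Ccl1 has 1 read in all.

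The block of monocyte and eosinophil attractants at lower positions on chromosome 11 had next to no reads. Ccl7, Ccl8, Ccl11, Ccl12 and Ccl1 had 0 counts in all 5 libraries and Ccl2 had 1, where a count of 0 allows a level of up to 0.351 to 0.490 CPM (3 counts in a library). Of 33 other chemokine ligand genes listed, 15 had 0 counts in all libraries, 12 had 1 to 10 counts over all libraries and 6 had more and were tested. Cxcl1 and Cxcl3, which lie on chromosome 5 with Cxcl2 and also bind Cxcr2, had 1 count each. Cxcl12, the ligand of Cxcr4, had 0 counts in the BcorWT libraries and 2, 3 and 3 in the BcorΔE9-10 libraries, which is at or under the floor.

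Promoters were searched in the 250 bases before each transcript start, on both strands, for the 9 of the 10 genes matched in the table of RefSeq promoters used here (GRCm38.p6), Ccl4 being the other. The kappaB motif, bound by NF-kappaB, was found for Cxcl2 and Ccl9, the former with a positive and the latter with a negative fold change, and occurs in 3.90% of all promoters. Their sequences are shown because they are the members of this group that hold it, with the matched bases in capitals. That of Cxcl2 (chr5:90903649-90903898, plus strand) holds 2 overlapping matches, 1 on each strand, and that of Ccl9 (chr11:83578637-83578886, minus strand) holds 1 match on the reverse strand:
Cxcl2: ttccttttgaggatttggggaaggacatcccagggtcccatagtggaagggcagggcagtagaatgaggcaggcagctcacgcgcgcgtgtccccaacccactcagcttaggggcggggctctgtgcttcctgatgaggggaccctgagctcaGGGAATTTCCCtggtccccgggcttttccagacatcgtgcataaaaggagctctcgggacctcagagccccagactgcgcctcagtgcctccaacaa
Ccl9: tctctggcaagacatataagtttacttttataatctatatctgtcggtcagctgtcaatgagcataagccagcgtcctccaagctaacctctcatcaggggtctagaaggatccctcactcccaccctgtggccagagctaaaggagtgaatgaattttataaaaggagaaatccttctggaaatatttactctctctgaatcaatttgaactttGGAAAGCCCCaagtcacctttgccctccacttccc
The AP-1 motif TGANTCA was found for Ccl9 alone of the 9 (6.75% of all promoters), GAGGAA, a core of PU.1 sites, for Ccl3, Cxcr2 and Ccr1 (23.3%), TATAAA for Ccl9 and Cxcr4 (12.4%) and the C/EBP word TTGCNNAA for 0 of the 9 (9.56%).

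Among the receptors, Ccr2 had the largest difference. Ccr2, the receptor of Ccl2 and Ccl7 on monocytes and their progenitors, is encoded at chromosome 9, 124101950 to 124113557, plus strand. It stood at 5.20, 7.18 and 4.32 CPM in the BcorΔE9-10 libraries and at 12.8 and 7.85 CPM in the BcorWT libraries, from 37 to 90 counts. All BcorΔE9-10 libraries were below both BcorWT libraries, as were those of 20.3% of all tested genes. The means of 5.57 ± 1.46 CPM (SD, n = 3) and 10.3 ± 3.48 CPM (SD, n = 2) gave a ratio of 0.529 with an interval from 0.334 to 0.839 before adjustment (log2 fold change -0.92, SE 0.314, limma adjusted p = 0.0751). With edgeR's quasi-likelihood test and DESeq2 the adjusted p-values were 0.0774 and 0.119. Without BcorWT replicate 2 the log2 fold change was -1.26 (limma adjusted p = 0.0196), and without BcorWT replicate 1 it was -0.57 (limma adjusted p = 0.452).

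Cx3cr1, the fractalkine receptor of monocytes and of macrophage and dendritic cell progenitors, differed less. It was read at 10.4, 14.4 and 14.6 CPM in BcorΔE9-10 and at 17.8 and 14.2 CPM in BcorWT, with 2 BcorΔE9-10 libraries just above BcorWT replicate 2. The log2 fold change was -0.31 (SE 0.230, limma adjusted p = 0.431), with a fold interval from 0.577 to 1.13. Its annotated span (chromosome 9, 119901616 to 120069879, minus strand) covers several other genes, 1 of which overlaps an exon on the other strand, and reads of that gene cannot be told apart from its own unless strand was used in counting.

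Ccr1, the receptor of Ccl3, Ccl6 and Ccl9 (chromosome 9, 123962124 to 123968692, minus strand), stood at 6.15, 8.81 and 6.08 CPM in BcorΔE9-10 and at 5.40 and 7.41 CPM in BcorWT. The highest and the lowest library were of different groups and the others interleaved. Its log2 fold change was 0.10 (SE 0.314, limma adjusted p = 0.888), and the fold interval from 0.674 to 1.69 leaves differences of moderate size possible in either direction.

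Cxcr4 (chromosome 1, 128588199 to 128592293, minus strand) had between 1465 and 1863 counts, which made it the most precisely measured of the 10. It stood at 208, 271 and 184 CPM in the BcorΔE9-10 libraries and at 208 and 276 CPM in the BcorWT libraries. Both groups spanned nearly the same range, and the ratio of 0.905 had an interval from 0.724 to 1.13 (log2 fold change -0.14, SE 0.152, limma adjusted p = 0.596). Cxcr2, the receptor of Cxcl2 on neutrophils (chromosome 1, 74153989 to 74161246, plus strand), had 19, 18 and 24 counts in BcorΔE9-10 and 34 and 15 in BcorWT. These are 2.25, 2.94 and 2.80 CPM against 4.83 and 2.22 CPM, with both the highest and the lowest library in the BcorWT group. The log2 fold change of -0.33 (limma adjusted p = 0.696, SE 0.460) had a fold interval from 0.404 to 1.56, and 30.6% of the 30-base words at its transcript end occur in other genes, so its counts are uncertain.

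**Figure D3:**
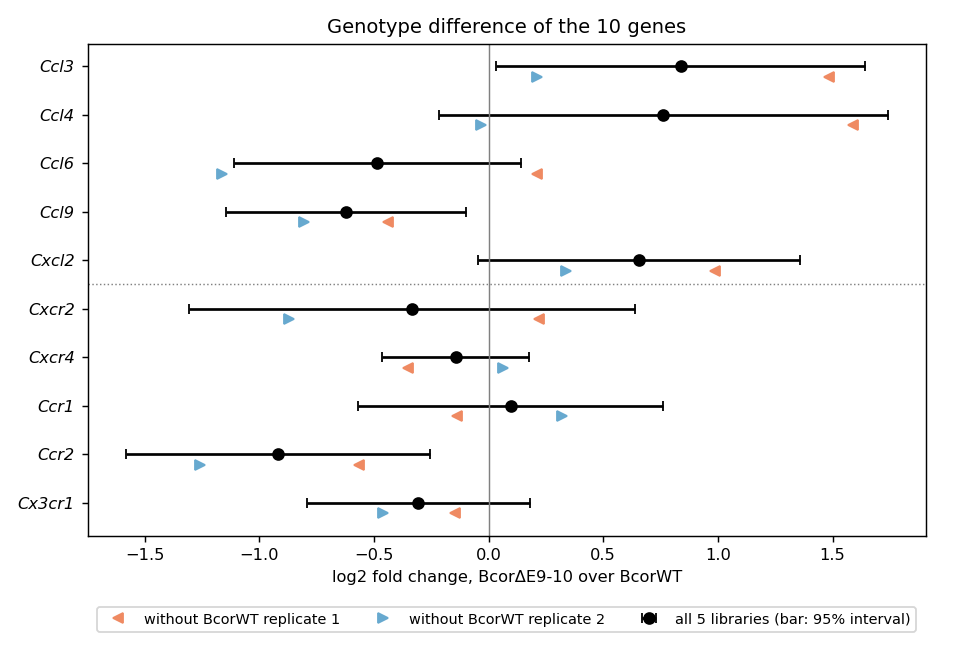
Log2 fold change of BcorΔE9-10 over BcorWT (horizontal axis) of the 5 ligands (above the dotted line) and 5 receptors, with black points and 95% intervals from all 5 libraries and triangles from fits without BcorWT replicate 1 (orange) or replicate 2 (blue). The intervals of Ccl3, Ccl9 and Ccr2 miss 0 before adjustment, and the triangles of Ccl4, Ccl6, Cxcr2, Cxcr4 and Ccr1 lie on opposite sides of 0.

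The BcorWT libraries lay further apart than counting error for most of these genes. Replicate 1 was above replicate 2 for 8 of the 10, and the 95% counting interval of the ratio was above 1 for 7. Such an interval lay above 1 for 16.3% and below 1 for 19.8% of all tested genes, and since it holds counting error only, it does not measure the spread between animals. The ratio was 3.17 for Ccl4 (interval 1.67 to 6.43), 2.60 for Ccl6 (2.06 to 3.30), 2.46 for Ccl3 (1.495 to 4.17) and 2.17 for Cxcr2 (1.15 to 4.29). A ratio above 2 was found for 5.22% of all tested genes with a count in replicate 2. For Cxcr4 the ratio was 0.754 (0.703 to 0.807), so that replicate 2 was higher. Within the BcorΔE9-10 group the highest library was from 1.28 times the lowest for Ccl6 to 2.15 times for Ccl9.

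Markers of other cells are given beside these differences. Per the methods of the study, lineage depletion and the Lin- gate were there to remove mature cells. The ratio of BcorWT replicate 1 to replicate 2 was above 1 for 10 of the 12 neutrophil markers, with a median of 1.15, against 0.981 over all tested genes. It was above 1.5 for 4 of them, and for 12.1% of all tested genes. Among the markers it was 3.19 for Retnlg, close to 1 for the most abundant, S100a8 (1.07), and below 1 for Camp (0.775) and Csf3r (0.602). For the 10 tested basophil, mast cell and eosinophil markers it was above 1 for 8, with a median of 1.26, with Cpa3 highest at 2.07 and Fcer1a and Gata1 below 1. Basophils and mast cells can make Ccl3, Ccl4, Ccl6 and Ccl9, and the basophil-mast-eosinophil list summed to 591 to 855 CPM in BcorΔE9-10 and 1307 to 1614 CPM in BcorWT, with 6 of 10 tested genes lower and 1 (Gata2) higher, where 4.09% of all tested genes were lower and 6.02% higher. The neutrophil list summed to 148461 to 172433 CPM in BcorΔE9-10 and 214726 to 227115 CPM in BcorWT, with 7 of 12 lower and 0 higher. The monocyte-macrophage list, beside which Ccr2 and Cx3cr1 are read, summed to 1165 to 1307 CPM and 1535 CPM in each BcorWT library, with 1 of 10 (Ly6c2) lower. Ly6c2 made up most of that sum, and without it the list stood at 234, 301 and 246 CPM in BcorΔE9-10 and 306 and 288 CPM in BcorWT, so that the groups overlapped. Of its defining genes Csf1r was read at 73 to 148 counts and Fcgr1 at 0 to 4. The part of these cells in the chemokine values was not tested.

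**Figure D4:**
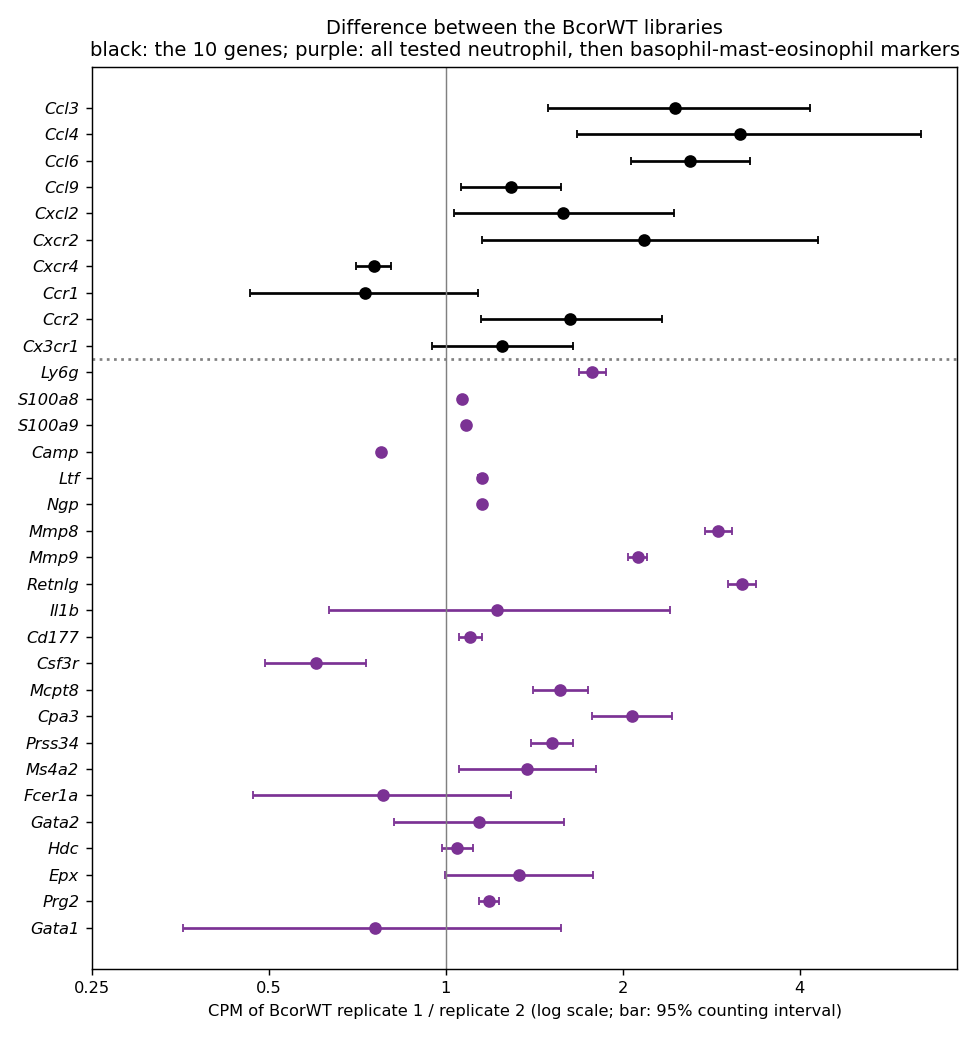
Ratio of CPM in BcorWT replicate 1 to replicate 2 (horizontal axis, log scale) with exact 95% counting intervals, for the 10 genes (black) and for all 12 neutrophil and 10 basophil, mast cell or eosinophil markers tested (purple); where no bar is seen it is narrower than the point. Above 1 lie 8 of the 10 black points, 10 of the 12 neutrophil points and 8 of the 10 others, and the purple points run from 0.602 for Csf3r to 3.19 for Retnlg.

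Of 6 dendritic cell, 7 lymphoid, 6 megakaryocyte-platelet genes and 1 stem cell gene tested, limma called 0, with 0, 1, 1 and 0 at an unadjusted p under 0.05. The quasi-likelihood test of edgeR and DESeq2 also called 0 in each of these lists. The erythroid list had the largest median log2 fold change of the marker lists, 1.70. Of its 6 tested genes limma called 1 higher (Car1), the quasi-likelihood test 5 and DESeq2 2. These tools called 1189, 1319 and 1280 of all 11766 tested genes, in either direction. The erythroid list summed to 65.6 to 260 CPM in BcorΔE9-10 and 24.4 to 67.7 CPM in BcorWT. In the list of the progenitor gate 1 of 7 genes (Kit) was higher by limma, as were 6.02% of all tested genes.

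Other receptors of the family were read at low levels. Of 19 other receptor genes, atypical receptors included, 8 had 0 counts in all libraries and 7 had 1 to 10 over all of them. Of the 9 ligands and receptors that could be tested, limma, edgeR and DESeq2 each called 0, with 2 genes at an unadjusted p under 0.05 in each. By limma these 2 were the ligands Pf4, a platelet chemokine, and Xcl1, a chemokine of lymphocytes. Pf4 stood at 23.5, 39.7 and 22.9 CPM in BcorΔE9-10 and 21.0 and 12.2 CPM in BcorWT (log2 fold change 0.75, SE 0.272, limma adjusted p = 0.0921), and it passed the threshold with total counts alone and with counts drawn down. Xcl1 had 16, 7 and 23 counts against 2 and 4 (log2 fold change 2.01, SE 0.878, limma adjusted p = 0.162).

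The machinery that chemokine receptors share with other receptors held called genes. By limma 6.02% of all tested genes were higher and 4.09% lower. Of 33 genes tested for G protein signalling to movement and for receptor desensitisation, 5 were higher and 4 lower. With total counts alone the split was 6 higher and 2 lower, and 11 were called with DESeq2, with RLE factors and with counts drawn down to 1 depth. The lists had been written with earlier results of these data known, and the counts are given as a description. The median log2 fold change was -0.21 in each list.

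Among the signalling genes 3 of 20 were higher and 2 lower, against 6.02% and 4.09% of all tested genes. Gnai3, an alpha subunit of the inhibitory G proteins, had 1004, 817 and 1052 counts in BcorΔE9-10 and 320 and 447 in BcorWT. Its mean was 125 ± 7.53 CPM in BcorΔE9-10 (SD, n = 3), higher than the 55.8 ± 14.7 CPM in BcorWT (SD, n = 2) by 1.18 on the log2 scale (limma adjusted p = 0.000169, SE 0.154). Gnai2, the related alpha subunit with the larger counts, was read at 491 to 596 CPM in BcorΔE9-10 and 651 and 771 CPM in BcorWT and missed the threshold (log2 fold change -0.35, limma adjusted p = 0.0517). Gnb2, a beta subunit, was higher by 0.60 on the log2 scale (limma adjusted p = 0.00440), and Prex1, an exchange factor that activates Rac on binding beta-gamma subunits, by 0.48 (limma adjusted p = 0.0337). The study names Prex1 as a putative direct target of a Polycomb complex that holds Bcor. That rests on lower histone ubiquitination together with higher RNA, at cutoffs unlike those used here.

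Rac2, the Rac GTPase of blood cells, was lower in BcorΔE9-10, where it stood at 454 ± 38.5 CPM (SD, n = 3), than in BcorWT, where it stood at 589 ± 14.4 CPM (SD, n = 2), with a log2 difference of -0.37 (limma adjusted p = 0.0258). Fgr, a Src family kinase of myeloid cells, was also lower (-0.50, limma adjusted p = 0.0443). Rac2 did not pass after scaling by total counts alone (-0.23, limma adjusted p = 0.171) or after removal of a GC trend (-0.29, limma adjusted p = 0.0835), and Fgr did not pass with total counts alone (-0.36, limma adjusted p = 0.165), with no filter (limma adjusted p = 0.0583) or with quality weights (limma adjusted p = 0.0609).

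Of the desensitisation genes 2 of 13 were higher and 2 lower, against 6.02% and 4.09% of all tested genes. Rgs1, which speeds the return of G proteins to the inactive state, had 145, 100 and 83 counts in BcorΔE9-10 and 42 and 27 in BcorWT (log2 fold change 1.47, SE 0.370, limma adjusted p = 0.0186). Rgs14, a regulator of the same family, was at 61.2 ± 1.48 CPM in BcorΔE9-10 (SD, n = 3) and at 34.7 ± 4.74 CPM in BcorWT (SD, n = 2), higher by 0.82 on the log2 scale (limma adjusted p = 0.00249, SE 0.151). Rgs2 was lower, at 401, 372 and 382 CPM against 735 and 454 CPM (log2 fold change -0.59, SE 0.147, limma adjusted p = 0.0183), and without BcorWT replicate 1, its highest library, it was at -0.24 (limma adjusted p = 0.296). Arrb2, a beta-arrestin that uncouples chemokine receptors, was at 352 ± 47.3 CPM in BcorΔE9-10 (SD, n = 3) and at 547 ± 80.4 CPM in BcorWT (SD, n = 2), with a log2 difference of -0.63 (SE 0.122, limma adjusted p = 0.00375). Of these 9 genes, Gnai3 and Rgs14 passed in all 5 fits that each left out 1 library. Gnb2 (0.35, limma adjusted p = 0.0983) and Arrb2 (-0.48, limma adjusted p = 0.0564) missed the threshold without BcorWT replicate 1, as did Rgs1 (1.76, limma adjusted p = 0.0617), which also missed it without BcorWT replicate 2 (1.19, limma adjusted p = 0.0921). Rgs2 also missed it without BcorΔE9-10 replicate 3 (-0.60, limma adjusted p = 0.0526). Prex1 passed in 1 of the 5 fits, without BcorΔE9-10 replicate 1, Rac2 in 1, without BcorΔE9-10 replicate 3, and Fgr in 2, without BcorΔE9-10 replicate 3 or BcorWT replicate 2. Without BcorWT replicate 1, 2 of the 33 genes were called in place of 9.

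**Figure D5:**
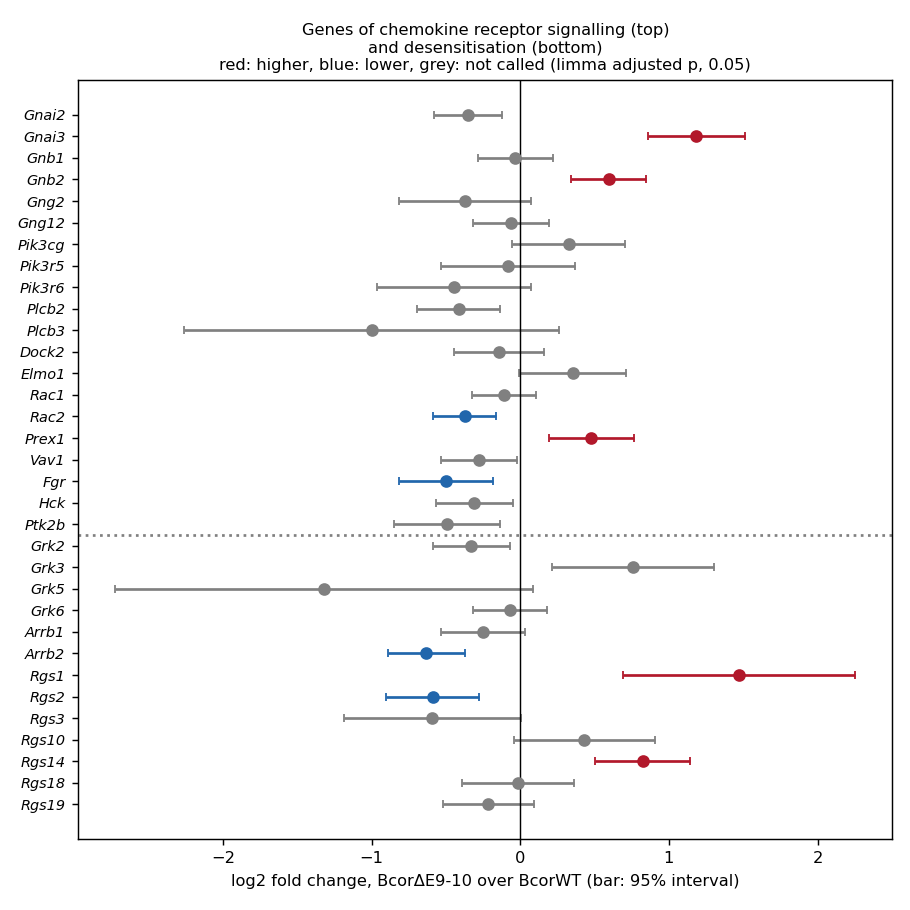
Log2 fold change of BcorΔE9-10 over BcorWT with 95% intervals (horizontal axis) for 20 genes of chemokine receptor signalling and, below the dotted line, 13 genes of desensitisation; red points were called higher, blue lower and grey not called. Gnai3 and Rgs1 lie furthest to the right of the called genes, at 1.18 and 1.47, and Arrb2 furthest to the left, at -0.63.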

How the data were processed

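The authors trimmed reads with cutadapt, aligned them to mm10 with HISAT2 and counted them per gene with featureCounts of Subread (version 1.5.0-p3, per the labels), and the deposited values are raw counts that were not normalised. Whether strand was used and how reads with several alignments were counted are not given in the sources used here. Genes were kept with filterByExpr (minimum count 10, minimum total 15), scaled by TMM factors of edgeR (version 4.0.16) and tested on voom values with limma (version 3.58.1), which the methods of the study name, in R version 4.3.3, two-sided. A CPM is a count per 1000000 of the scaled total, and fold intervals are 95% limma intervals. Within a group no library was a repeat of another, since the pairs had a chi-square of 5.94 to 11.1 per gene. The labels do not say that each library came from its own mouse, so p-values measure the spread between these libraries, which may be technical.

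All 10 members were named, as were other chemokine system genes that were called, and Pf4, Xcl1 and genes at or near 0 counts were named after their values were seen. The members and lists were chosen with earlier results of these data known. Alternatives were edgeR's quasi-likelihood test, DESeq2 (version 1.42.0), 2 scalings, 2 filters, quality weights, counts drawn down to 5998924, a replicate block, leaving out each library, and removal of a lowess trend (span 0.3) on GC content of the last 300 bases, the last chosen after seeing the data. The limma and edgeR fits were tested on simulated data. The result of 1 other receptor gene is not reported here.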

Additional observations from a re-analysis of the deposited data

How the results depend on the processing

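Each of the 10 members kept its direction and stayed short of the threshold under the alternatives, with the exceptions named here. With total counts alone, which moved the median of all genes to 0.15 and split the calls into 1210 higher and 197 lower instead of 708 and 481, the log2 fold change of Cxcr4 was 0.00095. With the GC trend removed, that of Ccr1 was -0.045. Across fits without 1 library the log2 fold change ran from 0.21 to 1.49 for Ccl3, -0.033 to 1.59 for Ccl4, -1.16 to 0.21 for Ccl6, -0.91 to -0.31 for Ccl9, 0.34 to 0.99 for Cxcl2, -0.87 to 0.22 for Cxcr2, -0.35 to 0.061 for Cxcr4, -0.14 to 0.32 for Ccr1, -1.26 to -0.57 for Ccr2 and -0.46 to -0.13 for Cx3cr1. These fits called 0 to 2 of the members (Ccl9 without BcorΔE9-10 replicate 1, and Ccl6 and Ccr2 without BcorWT replicate 2), 2 to 9 of the other chemokine system genes and 484 to 1141 genes in all, the lowest without BcorWT replicate 1. Replicate numbers are shared by 2 pairs of libraries. Deviations about the average of each group had correlations of 0.085 and 0.091 within these pairs. With 2 BcorWT libraries, the deviation of each is the other's with its sign reversed, so these correlations are not separate checks. They cannot decide whether the libraries of a pair share more than a number. A fit with a replicate block takes its genotype estimate from these 2 pairs alone, since BcorΔE9-10 replicate 3 has no partner. With that block 2 members were called, Ccl6 (-0.76, limma adjusted p = 0.0154) and Cxcl2 (0.90, limma adjusted p = 0.0496). It called 1454 genes in all and, of the other ligands and receptors, Pf4. For these changes the cause was not tested. Counts under 60 in at least 3 of the 5 libraries limit Ccl3, Ccl4, Cxcr2, Ccr1 and Ccr2.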
